A study of Mus musculus with 6 samples.

Results

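Plasma cell spots were the capture spots of 6 mouse kidney libraries in which RNA of the antibody-joining J chain and of the kappa light chain constant region was found together. Members were chosen by the UMIs of these 2 genes. A spot was a member with at least 1000 unique molecular identifiers (UMIs, each counting 1 captured RNA molecule), at least 3 UMIs of Jchain and at least 3 UMIs of Igkc, and 292 of 18684 spots that reached 1000 UMIs met the rule (1.563%). The assay was 10x Genomics Visium: every barcoded spot of a slide takes up RNA from the tissue above it, so a spot holds several cells or parts of cells and a plasma cell spot also holds the tubule, vessel or stroma around the plasma cell. One library came from a B6C57 wild-type mouse (WT), 1 from a B6.Cg-Col4a5tm1Yseg Alport syndrome mouse (AS) at 2 months (2m AS) and 1 from an AS mouse at 5 months (5m AS). Another pair came from 5-month AS mice given hEV treatment, labelled early treated and late treated, and the mixed library held a wild-type female and a heterozygous female together (WT and Hetero Female in the plots). The strain carries a mutated Col4a5, an X-linked gene of the glomerular basement membrane. No source used here gives the WT mouse's age, the ages behind the mixed library, the amount of hEV or what separates early from late treatment. The sample titles name a sex only for the mixed library, and the part of sex in differences between libraries was not tested. Every group was 1 library, so differences between groups have no replicate check and none was tested.

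Plasma cells are the end stage of the B cell lineage and secrete antibody. Each one makes 1 heavy chain class and 1 type of light chain, kappa or lambda. The J chain protein, from Jchain, links IgM into pentamers and IgA into dimers, and plasma cells of any class can transcribe it. In the kidney, plasma cells are few at rest and gather in the interstitium during chronic inflammation, and stromal CXCL12 is a known retention signal for them.

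Jchain (ENSMUSG00000067149, chromosome 5: 88519809 to 88527891, minus strand) and Igkc (ENSMUSG00000076609, chromosome 6: 70726435 to 70726966, plus strand) are placed here on GRCm38, the assembly behind the submitters' mm10. Total UMIs ran from 48940875 to 91976637 per library. Median UMIs per spot were 13236 in the early treated library, 17806 in WT, 18508 in the late treated library, 22070 in the mixed library, 26114 in 5m AS and 28619.5 in 2m AS. Member spots were deeper than the other spots of their library in all 6, with medians of 32614.5 against 25784 UMIs in 5m AS and 18146 against 13119 in the early treated library. The share of mitochondrially encoded UMIs was also higher in members than in other spots of 5m AS (8.79% against 7.83%), the early treated library (6.98% against 5.96%) and the mixed library (8.44% against 7.07%), close in the late treated library (8.40% against 8.32%) and WT (12.1% against 11.9%), and lower in 2m AS (5.53% against 7.17%), and its part in the results was not tested. Barcodes name slide positions, and 486 of 4922 barcodes occurred in all 6 libraries. Of 287 distinct member barcodes, 5 were members in 2 libraries and 0 in more.

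Member spots made up the largest shares in 5m AS and the early treated library. There were 12 member spots among 4085 in WT (0.294%, 95% exact Clopper-Pearson interval 0.152 to 0.513) and 4 among 3182 in 2m AS (0.126%, 0.0343 to 0.322). In 5m AS 88 of 1989 spots were members (4.42%, 3.56 to 5.42). The early treated library held 125 among 3398 (3.68%, 3.07 to 4.37). The late treated library held 21 among 2833 (0.741%, 0.459 to 1.13), and the mixed library 42 among 3197 (1.31%, 0.948 to 1.77). The intervals of 5m AS and the early treated library overlapped each other and lay above those of the other 4 libraries, while the late treated library lay below the mixed library by point value with overlapping intervals. These shares were fixed by the membership rule and are a description, and all intervals cover counting error only.

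The order of the 2 highest libraries depended on depth. With every spot thinned to 5000 UMIs, 15 of 1932 spots qualified in 5m AS (0.776%) and 42 of 2923 in the early treated library (1.44%), so the early treated library stood above 5m AS. The mixed library kept 20 of 2966 (0.674%), the late treated library 4 of 2653 (0.151%), WT 2 of 4022 (0.0497%) and 2m AS 1 of 3061 (0.0327%). Thinning left out between 57 (5m AS) and 475 (the early treated library) shallower spots. The order of the 2 libraries with the most members thus changed with depth, whereas WT, 2m AS and the late treated library stayed below the other 3 in both versions.

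**Figure D1:**
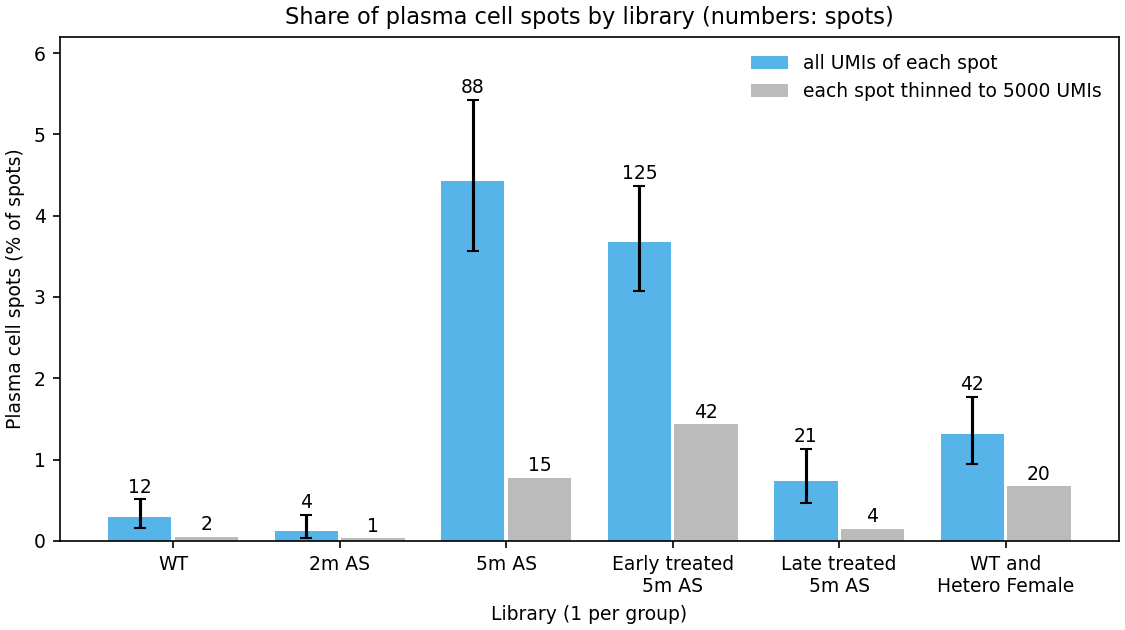
Share of plasma cell spots (percent of spots, vertical axis) in each of the 6 libraries, with all UMIs of a spot (blue, bars with 95% exact intervals) and after thinning each spot to 5000 UMIs (grey). Numbers above the bars are spots: 5m AS leads with all UMIs (88 spots), the early treated library leads after thinning (42 spots).

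Within the members, Jchain and Igkc spread widely. Jchain had a median of 6 UMIs per member spot in 5m AS (lowest 3, highest 355), 6 in the early treated library (highest 91), 5 in the late treated library (highest 22), 7 in the mixed library (highest 226), 3.5 in WT (highest 30) and 16.5 in 2m AS (highest 155). Igkc had medians of 42.5, 24, 19, 44.5, 24 and 46.5 UMIs in the same order, and its highest spots held 2779, 1355, 125, 1239, 168 and 156 UMIs. A few spots carried much of the signal: the spot with the most Igkc held 28.5% of all member Igkc in 5m AS, 14.8% in the early treated library, 19.5% in the late treated library and 19.5% in the mixed library. The barcode of that spot held 0 to 5 Igkc UMIs in whichever of the other libraries listed it.

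Members took up 74.7% of the Jchain UMIs of 5m AS, 62.3% in the early treated library, 73.7% in the mixed library, 62.5% in 2m AS, 36.4% in WT and 30.2% in the late treated library. At the edge of the rule, among spots with at least 3 UMIs of Igkc, 22 spots of 5m AS had exactly 3 Jchain UMIs (median Igkc 16.5) and 47 had 2 (median Igkc 12). In the early treated library, 36 spots had 3 Jchain UMIs (median Igkc 8) and 81 had 2 (median Igkc 6). Jchain set the limit far more often than Igkc: 401 spots of 5m AS and 555 of the early treated library had 3 or more Igkc UMIs with fewer than 3 of Jchain, against 0 and 11 spots with the reverse. Igkc was not confined to these places, since 62.4% of all spots in 5m AS and 58.0% in the early treated library had at least 1 Igkc UMI.

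**Figure D2:**
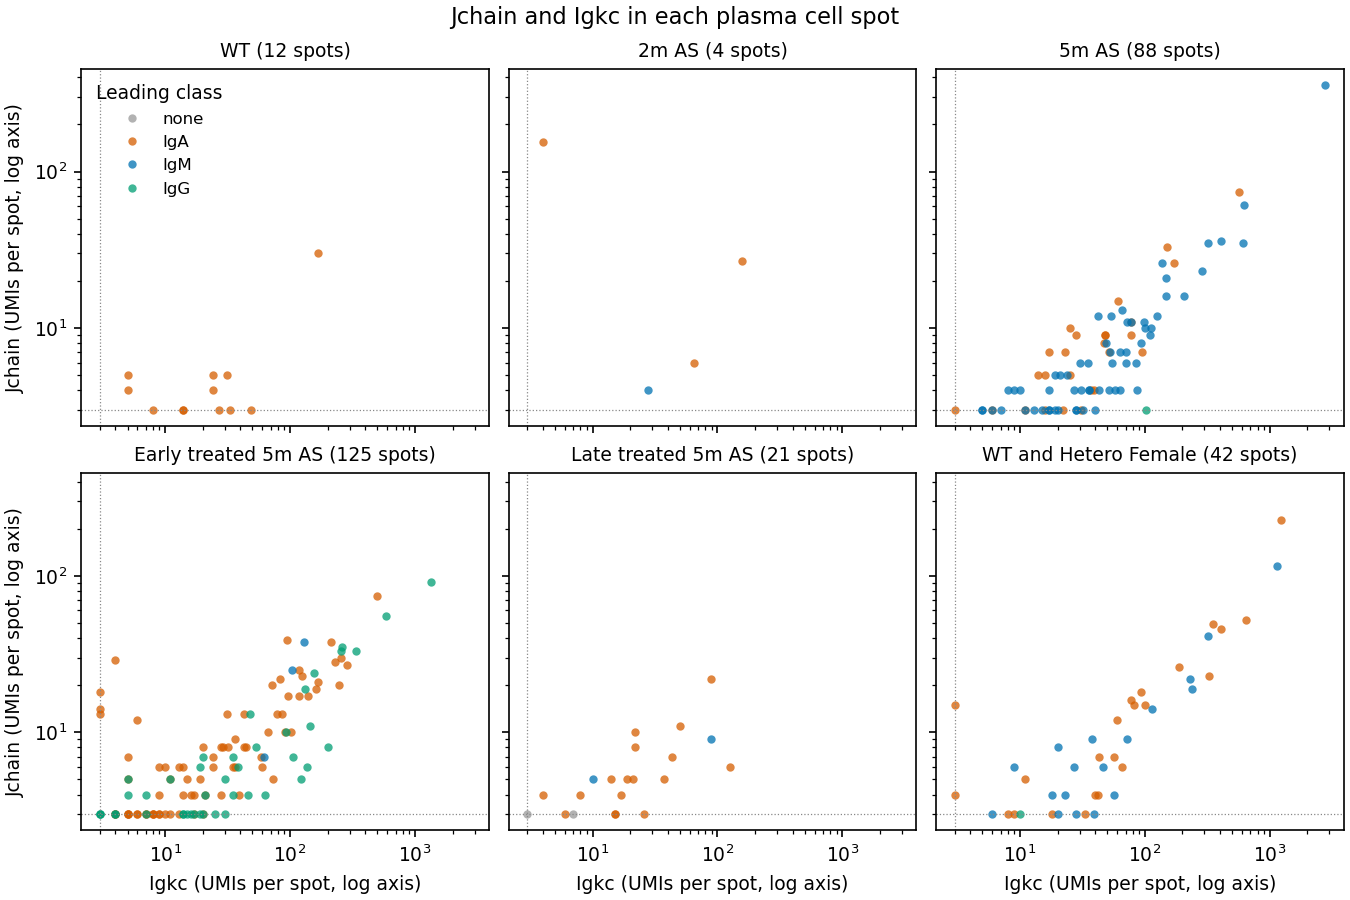
Jchain against Igkc (UMIs per spot, both axes logarithmic) for each of the 292 member spots, 1 panel per library, coloured by the heavy chain class with the most UMIs in the spot. Dotted lines mark the rule's limit of 3 UMIs, and the highest spot, in 5m AS, holds 2779 Igkc and 355 Jchain UMIs.

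The heavy chain class of the member spots differed between libraries. The rule used no heavy chain gene, and a spot was assigned to IgM (Ighm), IgA (Igha) or IgG (the sum of Ighg1, Ighg2b, Ighg2c and Ighg3) by whichever had the most UMIs, with at least 3. These genes are on chromosome 12 of GRCm38, with Igha at 113254830 to 113260236, Ighg2c at 113285325 to 113288932, Ighg2b at 113302965 to 113307933 and Ighm at 113418558 to 113422730. In 5m AS IgM led in 61 of 88 spots, IgA in 26 and IgG in 1. In the early treated library IgA led in 77 of 125 spots, IgG in 43, IgM in 3 and no class in 2. The late treated library had 17 IgA spots of 21, with 2 IgM and 2 without a leading class, while all 12 member spots of WT were IgA spots. Outside the rule, WT had 38 spots with at least 3 Igkc but fewer than 3 Jchain UMIs. Of these, IgA led in 22, IgG in 3 and no class in 13. The mixed library had 23 IgA, 18 IgM and 1 IgG of 42, and 2m AS had 3 IgA and 1 IgM. The IgM share of member spots was thus 69.3% in 5m AS (58.6 to 78.7) and 2.40% in the early treated library (0.498 to 6.85), while the IgG share was 1.14% (0.0288 to 6.17) and 34.4% (26.1 to 43.4); these intervals do not overlap, but each group is 1 library.

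By UMIs, IgM again led in 5m AS, but in the early treated library IgG exceeded IgA, the reverse of the count of spots. In 5m AS, 66.8% of 9794 heavy chain UMIs in member spots were IgM (65.9 to 67.7), 16.9% IgA and 16.3% IgG. In the early treated library, 3.28% of 16145 were IgM (3.01 to 3.57), 42.5% IgA and 54.2% IgG (53.4 to 54.98). In the late treated library 91.5% of 1485 were IgA, and in the mixed library 39.8% of 6060 were IgM, 51.5% IgA and 8.68% IgG. Single spots moved these shares: the 5m AS spot with the most Igkc alone held 2120 IgM and 873 IgG UMIs, and the corresponding spot of the early treated library held 3141 IgG UMIs against 8 IgM and 3 IgA. Without that spot the IgG share was 43.2% in the early treated library, below IgA at 52.8%, and 10.7% in 5m AS, where IgM stayed at 65.7%. The more numerous spots with Igkc but fewer than 3 Jchain UMIs, none of them members, had IgM as 71.2% of heavy chain UMIs in 5m AS and IgG as 51.9% in the early treated library.

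**Figure D3:**
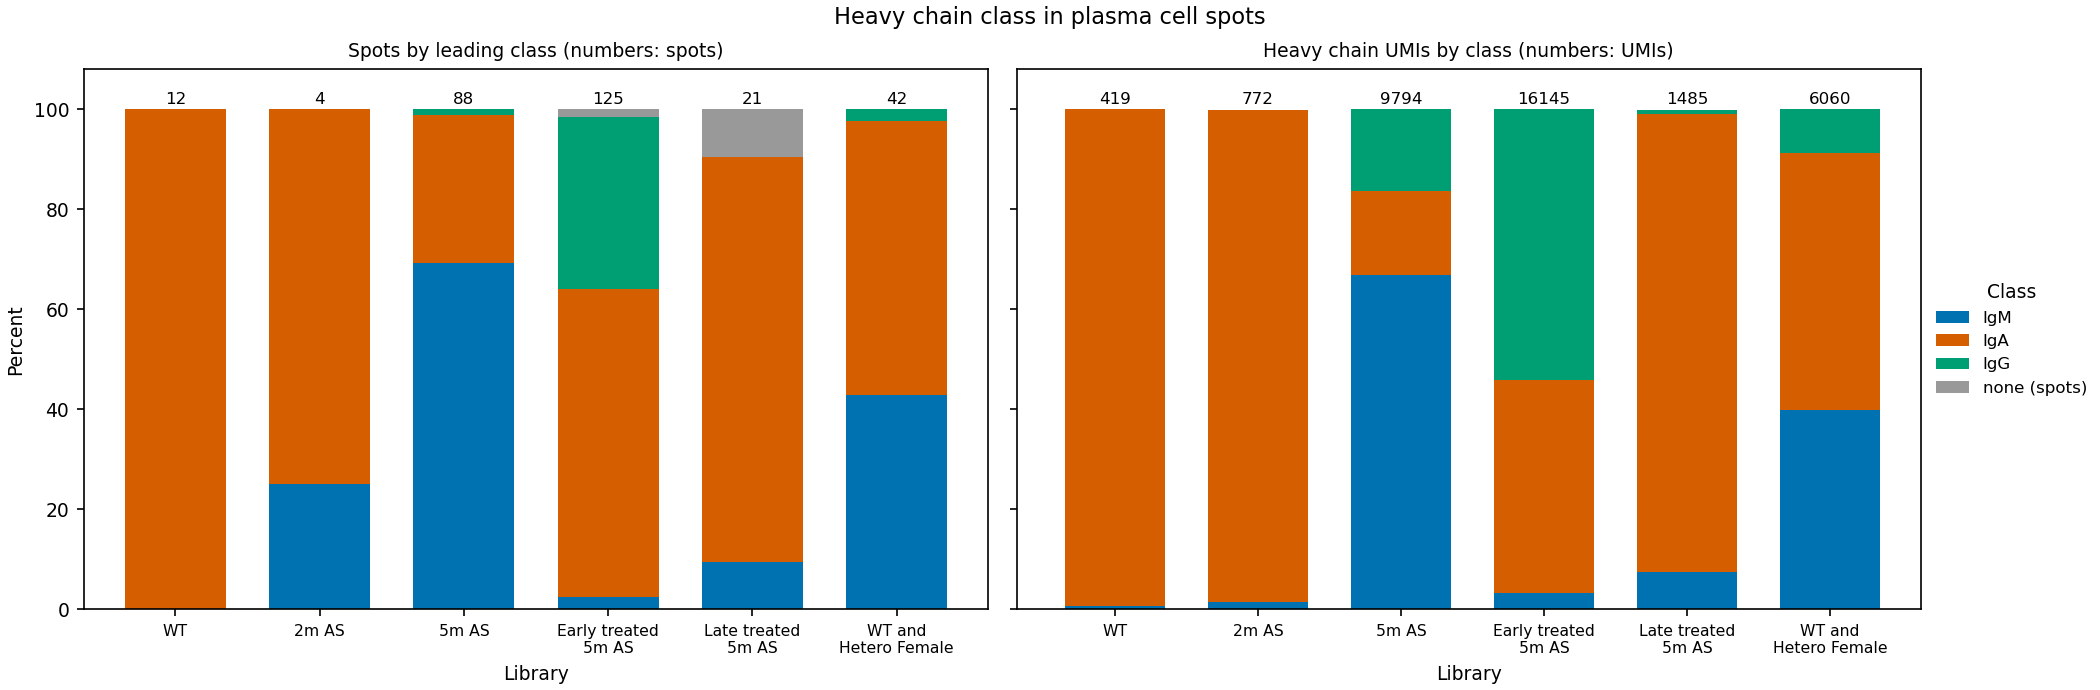
Heavy chain class in plasma cell spots of each library, as the percent of member spots led by a class (left) and the percent of heavy chain UMIs in those spots (right). Numbers above the bars give spots or UMIs, IgM is the largest class in 5m AS (61 of 88 spots) and IgG leads many spots only in the early treated library (43 of 125 spots).

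Most members were dominated by 1 class, but mixed spots were common in 5m AS. Among spots with at least 20 heavy chain UMIs, the leading class held a median of 92.6% of them in 5m AS (68 spots, lowest 56.8%), 96.7% in the early treated library (92 spots, lowest 46.8%), 100% in the late treated library (13 spots, lowest 50%) and 95.7% in the mixed library (29 spots, lowest 65.9%). The leading class reached 90% in 40 of those 68 spots in 5m AS, 71 of 92 in the early treated library, 11 of 13 in the late treated library and 18 of 29 in the mixed library. Spots with a lower share hold RNA of more than 1 class, which at this resolution cannot be divided between cells.

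IgG subclass sums differed between libraries, and single spots held much of them. In the early treated library, member spots held 4737 Ighg2b and 4009 Ighg2c UMIs but 4 of Ighg1 and 2 of Ighg3. Of the 50 spots there with at least 10 IgG UMIs, Ighg2c exceeded Ighg2b in 34 and Ighg2b exceeded Ighg2c in 15. By spots Ighg2c was thus more often the higher one there, the reverse of the sums. In 5m AS Ighg2c was the higher one in all 17 spots with at least 10 IgG UMIs, with 1058 UMIs against 526 in total. The mixed library held 256 Ighg1, 230 Ighg2b, 26 Ighg3 and 14 Ighg2c UMIs, and 238 of the Ighg1 UMIs came from 1 spot. Ighg2b exceeded Ighg2c in all 6 of its spots with at least 10 IgG UMIs. The similarity of Ighg2b and Ighg2c was not measured here, and how the counting treated reads that match both was not examined, so their separate counts are uncertain.

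Lambda light chains were concentrated in few spots. Summed over Iglc1, Iglc2 and Iglc3, lambda made up 0.835% of light chain UMIs in the members of 5m AS (0.665 to 1.04), 9.56% in the early treated library (8.99 to 10.1), 4.90% in the late treated library (3.39 to 6.81), 12.2% in the mixed library (11.5 to 13.0), 0.495% in WT and 77.2% in 2m AS. Lambda exceeded kappa in 6 of 125 spots of the early treated library, which held 782 of its 969 lambda UMIs, and in 1 spot each of 2m AS, the late treated library and the mixed library. A further spot of the mixed library held 667 of its 888 lambda UMIs beside 1148 Igkc UMIs. The 2m AS spot held 847 lambda, 4 Igkc, 155 Jchain and 413 IgA UMIs, close to the Igkc limit of the rule. Because membership requires Igkc, spots with lambda alone are left out. Lambda constant genes are near copies of each other, so their separate counts are uncertain. Variable region genes were almost unseen: over the 160 Igkv genes no library had more than 4 UMIs in its members, the 185 Ighv genes had 0 in every library, and Iglv1 had 27 in 5m AS, 70 in the early treated library, 16 in the mixed library, 2 in 2m AS and 1 in the late treated library.

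To ask which other RNAs accompanied plasma cell RNA, counts were summed over the member spots and over the other spots of each of the 4 libraries with at least 20 members, and compared with edgeR's quasi-likelihood test with the library as a block. The test asks for a difference common to 4 unlike libraries. Its p-values rest on a spread between libraries that edgeR moderates with that of all genes. A small p-value is therefore no measure of how alike the 4 libraries were for that gene. With 1 library per condition it is also no replicate check within a condition. Of 14858 genes tested, 25 were higher in members (0.168%) and 11 lower (0.074%), 36 in all (0.242%) at adjusted p below 0.05. Jchain and Igkc chose the members and were not tested. Genes had to reach 0.406 CPM in at least 4 of the 8 sums to be tested. Of the 25 higher genes 20 did so in the other spots alone, Slc7a12 and 4930434B07Rik in 2 of the 4 sums of other spots, Pou2af1 and Iglv1 in 1, and Prg2 in none of them. In sums over spots, more cells of a type and more RNA per cell cannot be told apart.

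Of the 15 genes listed as plasma cell markers beside Jchain and Igkc, 14 could be tested and 3 rose (Mzb1, Pou2af1 and Txndc5), with a median log2 fold change over the list of 0.27 against -0.02 over all genes. Mzb1 encodes a chaperone that aids IgM assembly in the endoplasmic reticulum. Levels are given as CPM, the UMIs of a gene in a set of spots scaled to a fixed total. The SE of a log2 fold change was back-computed, as its absolute value over the square root of edgeR's F statistic. Mzb1 reached 11.7 CPM in members against 2.4 in the other spots of 5m AS, 14.4 against 1.4 in the early treated library, 5.5 against 1.1 in the late treated library (3 UMIs, ratio 4.92, 0.987 to 15) and 36.2 against 1.3 in the mixed library. All 4 libraries were higher, by a log2 fold change of 3.40 ± 0.41 (SE, edgeR adjusted p = 0.0036), although the call was lost without the late treated library (3.52, adjusted p = 0.16), with members set at 2 UMIs of each rule gene (2.86, adjusted p = 0.13) and against other spots with 0 Jchain UMIs (3.51, adjusted p = 0.065). Pou2af1, the B cell coactivator of octamer-dependent transcription, had 15, 16, 0 and 5 member UMIs in 5m AS, the early treated library, the late treated library and the mixed library and rose by 4.19 ± 0.48 (edgeR adjusted p = 1.5e-07), with the late treated library, at 0 UMIs, the exception. It reached the limit of the filter on low counts in 3 member sums and 1 sum of other spots, so its entry into the test rested mostly on the members. Against other spots with 0 Jchain UMIs Pou2af1 was not among the called genes. Only 35 of the 36 called genes could be tested there, so its absence may reflect the filter on low counts and not a failed test. Txndc5, a disulphide isomerase of the secretory pathway that many cells express, rose by only 0.38 ± 0.08 (edgeR adjusted p = 0.017), with ratios of 1.23, 1.17, 1.39 and 1.43, and lost its call without the mixed library (0.32, adjusted p = 0.11), with DESeq2 (0.41, adjusted p = 0.058) and with members set at 2 or 5 UMIs of each rule gene (0.29 and 0.39, adjusted p = 0.13 and 0.059).

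Other markers on the list did not pass the test. Xbp1, the transcription factor of the secretory programme, stood at 0.89, 1.07, 0.98 and 0.95 times its level in other spots in 5m AS, the early treated library, the late treated library and the mixed library. Sdc1 (CD138, the usual surface marker of plasma cells, which epithelium also carries) stood at 0.96, 1.03, 1.5 and 1.26 times. None of the 13 genes of the unfolded protein response, which antibody secretion relies on, passed the test, and their summed level differed from other spots by ratios of 0.929 to 1.02. Derl3, an endoplasmic reticulum degradation factor, had ratios of 1.15 and 1.60 in 5m AS and the early treated library, 0 UMIs in the late treated library and a ratio of 8.09 in the mixed library (13 UMIs, 4.16 to 14.5). Thus the label rests on the rule genes, on the light chain gene Iglc2, on the B-lineage genes Mzb1 and Cd79a and on the small rise of Txndc5. Pou2af1 entered the test mostly through the member sums, so its call is weak support for the label. Xbp1, Sdc1 and the unfolded protein response genes did not pass the test.

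Most constant region genes beyond Igkc had large fold changes without passing the test. Iglc2 rose by 4.65 ± 0.49 (edgeR adjusted p = 0.012), a call lost with members set at 2 UMIs (adjusted p = 0.15), and it was the only called one of 10 constant region genes tested; 7 reached an unadjusted p under 0.05. Igha had a log2 fold change of 5.65 ± 0.70 with an edgeR adjusted p of 0.32, Ighm 4.67 ± 1.013 with 0.60 and Ighg2b 6.30 ± 0.36 with 0.071. Ighd, which marks naive B cells together with Ighm, was the 1 with a negative value (-0.61, edgeR adjusted p = 0.99). The lambda variable gene Iglv1 rose by 5.78 ± 0.37 (edgeR adjusted p = 3.4e-16), with member levels of 9.6, 28.8, 1.8 and 13.2 CPM in 5m AS, the early treated library, the late treated library (1 UMI) and the mixed library. It reached the limit of the filter on low counts in 4 member sums and in 1 sum of other spots. The member sums alone were enough for Iglv1 to be tested, so its call is no independent support and these values are a description.

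A gene singled out after its values were seen was Prg2 (chromosome 2: 84980461 to 84983632, GRCm38). It encodes proteoglycan 2, known as the eosinophil major basic protein. Member spots held 11 UMIs in 5m AS, 25 in the early treated library, 1 in the late treated library and 14 in the mixed library, at 3.9, 10.3, 1.8 and 11.5 CPM. In the other spots it reached at most 0.237 CPM, with 2, 11, 1 and 6 UMIs. It passed the filter on low counts only through the member sums in which it was high, so its call is no independent support and these values are a description. The neutrophil and mast cell list, the only granulocyte list measured, had 3 testable genes of 9, none of them called (median log2 fold change -0.85), and 0 member UMIs in the late treated library; whether other eosinophil genes accompany Prg2 was not tested.

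Most B cell genes were at or near 0 in the members. Cd79a, part of the B cell receptor that plasma cells can keep, rose by 3.32 ± 0.35 (edgeR adjusted p = 1e-07), with 23, 22, 1 and 22 member UMIs in 5m AS, the early treated library, the late treated library and the mixed library. It was the 1 called gene of 5 tested on the B cell list, whose other 6 genes were too low to test. Ms4a1 (CD20), which plasma cells lose, had 3 UMIs in the members of 5m AS and 0 in those of the other 3 libraries, and Pax5 and Blk had 0 in all 4. Over the list, 4 of 11 genes were at 0 in members of 5m AS and of the early treated library, 9 in the late treated library and 7 in the mixed library, and the summed level was 16, 16, 3.64 and 29.6 CPM, against 9.44, 6.18, 8.14 and 9.06 in the other spots. T and NK cell genes gave no call among 14 tested, with a median log2 fold change of 0.24, and the macrophage list none among 14, with the same median of 0.24. Their summed ratios to other spots were 0.992 and 0.910 in 5m AS, 0.979 and 1.12 in the early treated library, 1.83 and 1.73 in the late treated library, and 1.92 and 1.5 in the mixed library, so both lists had their highest ratios in the 2 libraries with the fewest members of the 4. In 5m AS the macrophage list was below other spots, while the counting interval of the T and NK cell list included 1 there and in the early treated library (0.878 to 1.12 and 0.856 to 1.12). Class II and dendritic cell genes had ratios of 0.918, 0.994, 1.61 and 1.57 in the 4 libraries, with none of 12 called and a median of 0.28.

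Cxcl12 was called on the survival and homing list and Lum on the fibroblast list, each as 1 gene of its list. Cxcl12 (chromosome 6: 117168535 to 117181367, GRCm38) encodes the chemokine that holds plasma cells in bone marrow. It reached 207.1 CPM in members against 146.2 in other spots of 5m AS, 167.6 against 124.4 in the early treated library, 207.4 against 151.8 in the late treated library and 162.9 against 141.9 in the mixed library. The rise was 0.42 ± 0.08 on the log2 scale (edgeR adjusted p = 0.0015) and was higher in 4 of 4 libraries, though the counting interval of the mixed library included 1 (ratio 1.15, 0.992 to 1.32). It was the 1 called of 12 tested on the survival and homing list; the cytokine genes Tnfsf13b (BAFF) and Tnfsf13 (APRIL) had log2 fold changes of 0.26 and -0.10. Lum, the fibroblast proteoglycan lumican, stood at 25.9 against 18.3 CPM in 5m AS, 23.4 against 9.3 in the early treated library, 21.8 against 7.8 in the late treated library and 9.9 against 3.4 in the mixed library, a rise of 1.04 ± 0.17 (edgeR adjusted p = 0.00057) whose call was lost with members set at 2 UMIs (0.98, adjusted p = 0.14). Lum was the 1 called of 10 fibroblast genes, whose median was 0.34, and Dcn (decorin) had the next largest value at 1.002 ± 0.33 with an edgeR adjusted p of 0.80.

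Called genes outside those lists included Sfrp4 and Gdf10, while the matrix, endothelial and smooth muscle lists held none. Sfrp4, a secreted Wnt antagonist, rose by 2.02 ± 0.33 (edgeR adjusted p = 0.00052), with ratios of 1.94, 3.88, 7.43 and 8.13 in 5m AS, the early treated library, the late treated library and the mixed library. Gdf10, a ligand of the TGF-beta family, rose by 0.68 ± 0.11 (edgeR adjusted p = 0.00057) with ratios of 1.29, 1.55, 2.61 and 1.45. Serping1, the C1 inhibitor and the 1 called of 9 complement genes, rose by 0.47 ± 0.08 (edgeR adjusted p = 0.00097) with ratios of 1.12, 1.26, 1.83 and 1.5. Cst3 (cystatin C), Smoc2, Matn2 and the smooth muscle gene Lmod1 rose by 0.35, 0.54, 0.59 and 1.29, and each lost its call without at least 1 library. The ratios of Lum, Sfrp4, Gdf10, Serping1, Cst3 and Smoc2 were all smallest in 5m AS, while those of Matn2 and Lmod1 were smallest in the mixed library (1.07 and 1.23). The matrix list gave no call among 12 genes (median 0.13), the endothelial list none among 9 (median -0.05) and the smooth muscle list none among 6 (median 0.79).

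Spp1, Gpx3 and Hsd11b2 were among the 11 lower genes. Spp1 (osteopontin), an abundant product of injured tubules and the 1 called of 11 injury genes, stood at 5267 against 7114 CPM in 5m AS, 3690 against 5048 in the early treated library, 2692 against 2604 in the late treated library and 1605 against 2239 in the mixed library. It fell by 0.32 ± 0.07 on the log2 scale (edgeR adjusted p = 0.028), with the late treated library the exception. The injury list had a median log2 fold change of -0.32, and Havcr1 (KIM-1) stood at 0.69 and 0.47 times the other spots in 5m AS and the early treated library, 1.41 (0.843 to 2.20) in the late treated library and 0 member UMIs in the mixed library, with an edgeR adjusted p of 0.20. Fgb and Fgg, chains of fibrinogen, which injured tubules can make, fell by 1.17 ± 0.26 and 0.67 ± 0.12 (edgeR adjusted p = 0.023 and 0.0012), although Fgg stood at 1.15 (0.724 to 1.72) in the late treated library. Gpx3 (plasma glutathione peroxidase, made by proximal tubules) fell by 0.36 ± 0.07 (edgeR adjusted p = 0.0066) and Hsd11b2 of the collecting duct principal cell by 0.40 ± 0.08 (edgeR adjusted p = 0.0097), both lower in 4 of 4 libraries. Myrf, Nectin2, Gldc, Card10 and Prodh2 were also lower in all 4 libraries, by 1.43, 0.54, 0.52, 0.46 and 0.39 on the log2 scale.

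The called list was sensitive to single libraries. Of the 25 higher genes, 12 kept their call whichever library was left out: Cd79a, Pou2af1, Prg2, Iglv1, Iglc2, Cxcl12, Lum, Sfrp4, Gdf10, Serping1, Prlr and Slc39a8. None of the 11 lower genes did, and with DESeq2 Gpx3 alone of the 11 kept its call. Of the 12 higher genes that kept their call, Prg2, Iglv1 and Pou2af1 entered the test wholly or mostly through the member sums, so their calls are weak support. The prolactin receptor gene Prlr (0.78 ± 0.11, edgeR adjusted p = 1.9e-05) had 144 and 197 member UMIs in 5m AS and the mixed library but 4 and 1 in the early and late treated libraries, where the counting intervals of its ratio included 1. The metal transporter gene Slc39a8 rose by 0.80 ± 0.13 (edgeR adjusted p = 0.00057), a call lost with DESeq2 (adjusted p = 0.078) and with members set at 2 UMIs (adjusted p = 0.73). Slc7a12 and C8a lost their calls without the mixed library, and their log2 fold changes were then 0.46 and 0.64 against 1.26 and 1.01 with it. Without 5m AS 118 genes were called in all and without the early treated library 140, of which 29 and 25 were among the 36.

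**Figure D4:**
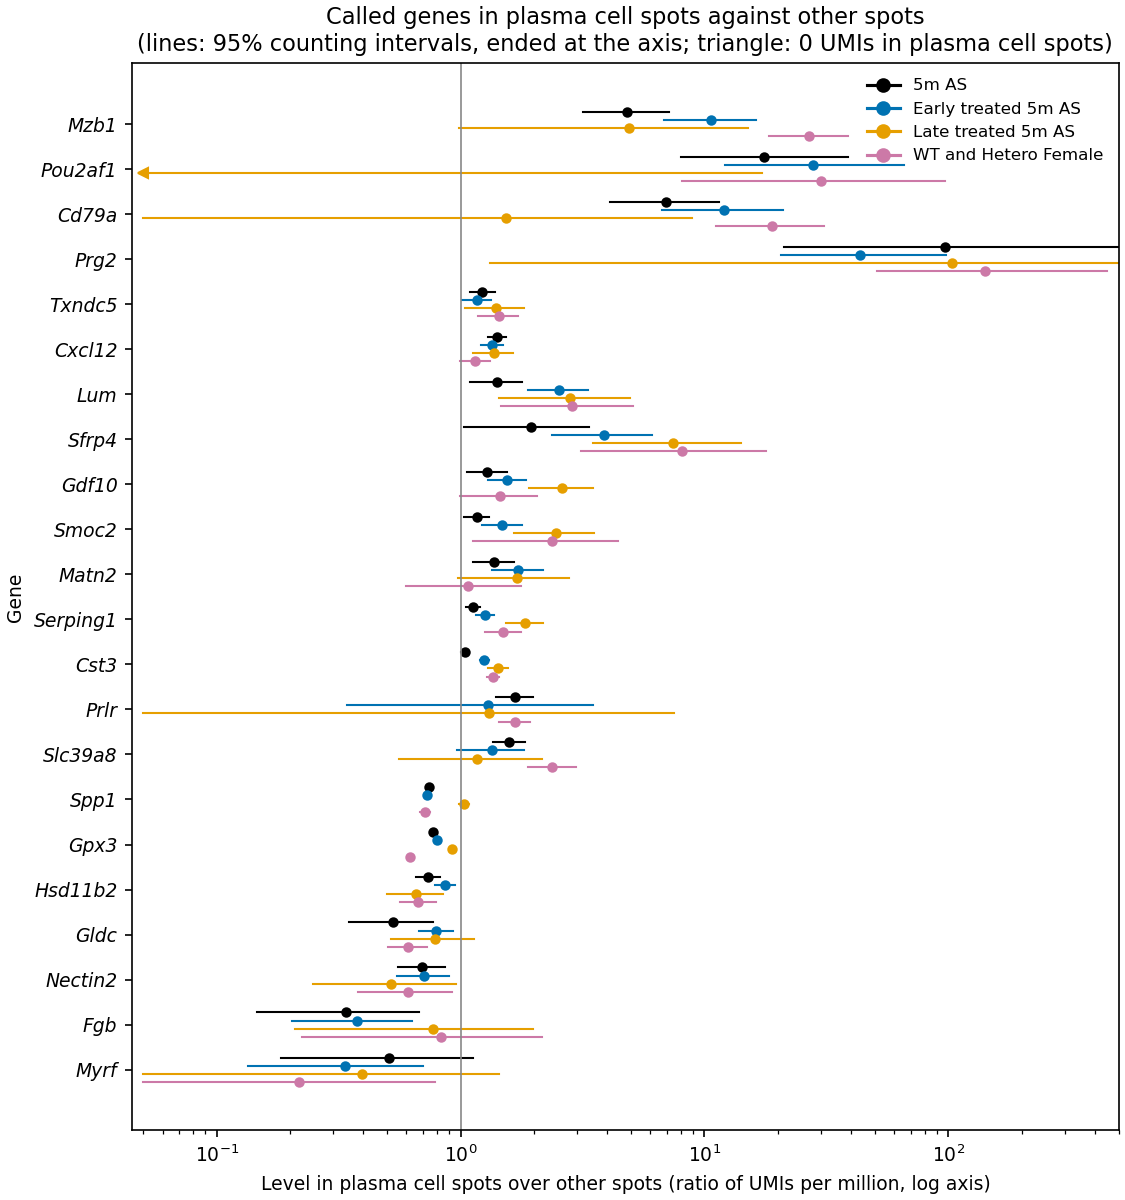
Ratio of CPM in plasma cell spots over the other spots of the same library (horizontal, logarithmic axis) for 22 of the called genes, with 95% counting intervals that end at the axis limits. Mzb1, Pou2af1, Cd79a and Prg2 lie farthest to the right in 5m AS, the early treated library and the mixed library, the genes from Cxcl12 to Cst3 lie between 1.04 and 8.13, and in the late treated library Pou2af1 has 0 UMIs and Spp1 is not lower (1.03).

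Summed gene lists of kidney structures gave different ratios in different libraries, with no test of the difference. In the late treated library the 6 smooth muscle genes summed to 915 CPM in members against 239 in other spots (ratio 3.83, 3.50 to 4.19). The ratio was 1.76 (1.66 to 1.86) in the early treated library, 1.17 (1.06 to 1.31) in the mixed library and 0.902 (0.832 to 0.977) in 5m AS. Acta2, smooth muscle actin, alone stood at 5.57, 2.15, 1.60 and 0.99 times in that order of libraries. In the early treated library the median spot held 187 CPM of the smooth muscle list in IgG-led members and 241 in IgA-led members, against 176 in other spots. The medians there were thus closer than the sums. Lymphoid tissue genes, chiefly the chemokines Ccl19 and Ccl21a, had sums above those of other spots in members of all 4 libraries, at 1.67 times in 5m AS, 1.75 in the early treated library, 3.76 in the late treated library and 1.74 in the mixed library. In the early treated library the median spot held 0 UMIs of the list in IgG-led members, IgA-led members and other spots alike, so the sum there rests on a minority of spots. None of the 4 testable genes of that list passed the test, and Ccl21a alone stood at 0.74 (0.449 to 1.14) in the mixed library. With 21 members, the late treated values rest on few spots.

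Tubule lists gave a different order. Late proximal tubule genes stood at 1.22 times the other spots in 5m AS (1.19 to 1.25), 1.003 in the early treated library, 0.891 in the late treated library and 1.70 in the mixed library (1.62 to 1.77). Distal convoluted tubule genes stood at 0.596, 1.42, 0.871 and 0.445, so the early treated library was the 1 library in which members held more of them. Thick ascending limb genes stood at 1.10, 1.19, 0.614 and 0.941. The intercalated cell list was lower in members of all 4 libraries (0.758, 0.925, 0.622 and 0.571), with none of 6 genes called and a median log2 fold change of -0.44, and the podocyte list was lower in 3 of the 4 (0.660, 1.04, 0.649 and 0.804). The tubule injury list was lower in 5m AS, the early treated library and the mixed library (0.746, 0.754 and 0.687) and at 0.984 (0.941 to 1.03) in the late treated library. No gene passed the test among 9 of the interferon response, 8 of the cell cycle, 7 of antibody transport and Fc receptors, 6 of the early proximal tubule, 5 of the thick ascending limb and 4 of haemoglobin.

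Members led by different classes also differed in other genes. The split into IgM-led, IgA-led and IgG-led members was made after the class values had been seen, and its ratios carry counting error only. In 5m AS the 61 IgM-led spots held 0.45 times the macrophage RNA of the 26 IgA-led spots (0.429 to 0.483), 0.59 times the class II and dendritic cell RNA, 0.56 times the matrix RNA and 0.36 times the interferon response RNA, but 1.89 times the late proximal tubule RNA (1.785 to 1.996). Medians over spots ran the same way for the macrophage list (1188 against 1940 CPM) and the late proximal tubule list (3708 against 1512), while the other spots of 5m AS had medians of 1511 and 2333. For the interferon response list the medians were closer, 180 against 208 CPM with overlapping quartile ranges (117 to 214 and 115 to 308), and so nearer to each other than the sums. Cxcl12 in the IgM-led spots stood at 2.07 times its level in the IgA-led spots of 5m AS (1.64 to 2.65), and the IgA-led spots, at 115.4 CPM, were below the 146.2 of the other spots. The same ratio was 1.02 (0.751 to 1.39) in the mixed library. IgM-led spots were deeper in 5m AS, with a median of 36145 UMIs against 25499.5, and shallower in the mixed library, with 23275 against 28818, so depth moved with these differences in both libraries, and the part of depth in these differences was not tested.

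In the mixed library the macrophage, class II, matrix, interferon response and late proximal tubule lists ran in the opposite direction, and the difference between the libraries was not tested. Its 18 IgM-led spots held 1.91 times the macrophage RNA of the 23 IgA-led spots (1.63 to 2.24), 2.64 times the class II and dendritic cell RNA, 2.13 times the matrix RNA and 0.57 times the late proximal tubule RNA (0.513 to 0.637). Median spot levels were 600 against 352 CPM for macrophage genes and 530 against 1211 for late proximal tubule genes. In the early treated library, for the 43 IgG-led over the 77 IgA-led spots, the macrophage ratio was 0.86, the matrix ratio 0.89, the injury ratio 1.04 and the late proximal tubule ratio 0.92, with overlapping quartile ranges of the spots for the macrophage list (567 to 1828 against 675 to 1851). Other lists stood far from 1 there: podocyte genes at 0.397 (0.338 to 0.465), lymphoid tissue genes at 2.46 (1.94 to 3.13) and haemoglobin genes at 2.82 (2.43 to 3.28), and Ccl21a alone at 4.56 (3.34 to 6.30). For podocyte and haemoglobin genes the medians over spots ran the other way, at 224 against 159 and 44.3 against 54.3 CPM. So did the medians of the macrophage list (1087 against 981 CPM), the injury list (4281 against 4436) and the late proximal tubule list (1602 against 1523). The matrix medians ran the same way as the matrix ratio (3646 against 4199). The spots of the mixed library were not assigned to its wild-type or heterozygous animal, so its classes may differ by animal and genotype. These are spots within 1 library each, so whether class and surroundings go together in other animals was not tested.

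**Figure D5:**
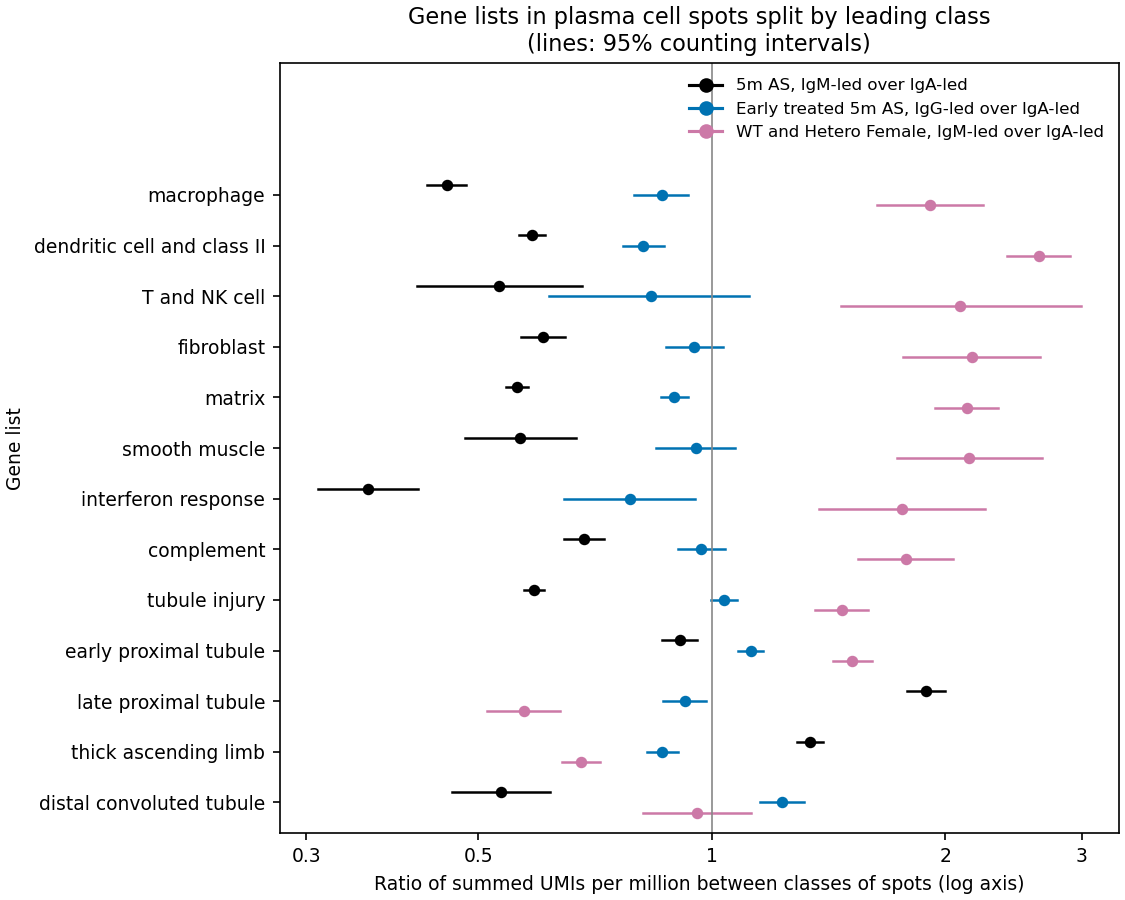
Ratio of summed gene lists (CPM, logarithmic axis) between plasma cell spots of different leading class within 1 library, with 95% counting intervals. Immune and matrix lists lie below 1 for IgM-led over IgA-led spots in 5m AS and above 1 in the mixed library, the late proximal tubule list does the reverse, and for the lists plotted, which leave out podocyte, lymphoid tissue and haemoglobin genes, the IgG-led over IgA-led ratios of the early treated library lie between 0.79 and 1.23.

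Plasma cell spots were also set against the most macrophage-rich 25% of the other spots of the same libraries. The limit that defines these spots was exceeded by 17 of 88 members in 5m AS (19.3%), 33 of 125 in the early treated library (26.4%), 8 of 21 in the late treated library (38.1%) and 19 of 42 in the mixed library (45.2%). The macrophage-rich spots were shallower than the members, with medians of 19758.5, 7558, 13187 and 16938 UMIs in that order of libraries, and the part of depth in the differences was not tested. Of 12905 genes tested, 1247 were higher in members (9.66%) and 953 lower (7.38%), 2200 in all (17%). With plain library sizes the counts were 471 higher and 3620 lower, so the balance of the 2 directions depends on scaling.

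The comparison spots were chosen for high macrophage RNA, so genes that go with macrophage RNA can differ by that choice alone, and the class II, Fc receptor and matrix lists are not described for this comparison. Against those spots the members held less injury RNA and more late proximal tubule RNA. These lists may themselves go with macrophage RNA across spots, so their differences can also come from that choice alone. They are given as a description, and this was not tested. Of 11 injury genes 10 were lower, among them Havcr1 (log2 fold change -1.30), Krt18 (-1.37), Sox9 (-1.47) and Spp1 (-0.69), and the list's median was -0.85 against -0.02 over all genes. Of 6 late proximal tubule genes 4 were higher, led by Slc22a7, an organic anion transporter, at 1.57 ± 0.13 (edgeR adjusted p = 7.9e-07). The cytochrome P450 gene Cyp2d9 and the desaturase gene Scd1 rose by 1.58 and 1.39. Mzb1 (3.23), Cd79a (3.13), Ighg2b (5.78) and Txndc5 (0.40) stayed higher in members; Txndc5 lost its call without 5m AS (0.41, adjusted p = 0.074) and with plain library sizes (0.16, adjusted p = 0.23). Lum was higher by 0.54 (edgeR adjusted p = 0.022), a call lost without 5m AS (adjusted p = 0.089), without the early treated library (adjusted p = 0.22), with DESeq2 (adjusted p = 0.12) and with plain library sizes (adjusted p = 0.16), while 5 of the 10 fibroblast genes were lower. Sdc1 had a log2 fold change of -0.39 and lost its call without 5m AS (adjusted p = 0.39), the early treated library (adjusted p = 0.32) or the late treated library (adjusted p = 0.054), with DESeq2 (adjusted p = 0.37) and with members set at 5 UMIs (adjusted p = 0.12). Without 5m AS 414 genes were higher and 236 lower, and without the early treated library 733 and 454.

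Members were also compared between libraries. With at least 1.5-fold as the limit, and no test, members of the early treated library were above those of 5m AS for 656 of 7143 genes (9.18%) and below for 400 (5.6%). Members of the late treated library were above for 1504 of 7546 (19.9%) and below for 808 (10.7%), but with TMM scaling the counts were 829 and 1227, so the direction of the whole depends on scaling. Members of the mixed library were above for 508 of 6819 (7.45%) and below for 1958 (28.7%), or 1132 and 1120 with TMM scaling. The late proximal tubule list had a median log2 ratio to 5m AS of -2.77 in members and -2.05 in other spots of the early treated library, and of -2.12 and -1.34 in the late treated library. Of the lists measured, smooth muscle had the largest gap between members and other spots in the late treated library: its median log2 ratio to 5m AS was 2.22 in members and 0.03 in the other spots.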

How the data were processed

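Raw UMI counts per gene and spot were used as deposited: the authors made them with Space Ranger 1.2.1 (WT and 5m AS) or 1.3.1 (the other 4 libraries), per the file headers, on mm10, per the submitters' processing notes. Per the labels' protocols, kidneys were frozen in OCT and cryosectioned. Spot positions were not used here. The matrices list 32285 genes, and for a symbol listed more than once (38 symbols) the first was used.

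Spots were selected in Python 3.11.15. Counts summed over members and over other spots were compared with edgeR 4.0.16 in R 4.3.3 (filterByExpr, TMM, library as block, Benjamini-Hochberg adjustment, threshold 0.05), and DESeq2 1.42.0 was an alternative. Ratios within a library carry exact Poisson intervals. On simulated data for members against other spots (14751 genes), 66% of 2-fold and 81% of 4-fold changes were recovered, and 5.77% of calls were false; for the macrophage-rich comparison (13020 genes) these were 79%, 97% and 3.30%. The simulation gave all genes the same fixed spread and changed the members alike in every library. The real libraries differ in their member ratios, so the share of false calls among the real calls was not measured. No doublet caller was run.

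Members and the 30 gene lists were chosen with earlier results of these data known. Named were called genes of the same sign in all 4 libraries with at least 20 UMIs in each (up to 15 higher and 10 lower), up to 4 genes per list with the largest change, all constant region genes, and the 8 highest and 5 lowest genes of the macrophage-rich comparison, leaving out predicted, ribosomal, mitochondrial, haemoglobin and Y genes. Prg2, Iglv1, Sfrp4, Smoc2, Matn2, Lmod1, Prlr, Slc39a8, Slc7a12, C8a and Fgg were chosen after their values were seen. Coordinates are from GENCODE on GRCm38.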

Additional observations from a re-analysis of the deposited data

Results flagged for a closer look

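For 5 listed genes the ratio of plasma cell spots over the other spots of the same library was at least 1.5 in 1 library and lower by at least 1.5-fold in another, with counting intervals on opposite sides of 1; smaller opposite differences are not listed. With 1 library per condition the difference between libraries was not tested. Cxcl10, an interferon-induced chemokine, stood at 1.703 in 5m AS and 3.264 in the mixed library but at 0.6213 in the early treated library. Vcam1, an adhesion molecule that binds plasma cell integrins, stood at 1.807 in the mixed library and 0.6437 in the early treated library. Pdgfra, a fibroblast receptor, stood at 1.522 in the late treated library (29 member UMIs) and 0.4673 in the mixed library (8 UMIs). The proliferation genes Mki67 and Birc5 stood at 3.465 and 3.928 in the mixed library (7 and 8 UMIs) and at 0.6201 and 0.5666 in 5m AS (27 and 20 UMIs).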

How the results depend on the processing

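With at least 2 UMIs of each rule gene the share of member spots was 7.14% in 5m AS, 6.71% in the early treated library, 1.41% in the late treated library and 2.03% in the mixed library. With at least 5 it was 2.56%, 2.12%, 0.424% and 0.813%, and 0.0979% in WT. Thinned to 5000 UMIs it was 0.776%, 1.44%, 0.151% and 0.674%, with 0.0497% in WT and 0.0327% in 2m AS. As means over spots, the shares of IgM, IgA and IgG were 60.7%, 30.3% and 8.95% in 5m AS, 3.59%, 58.5% and 37.9% in the early treated library, 11.9%, 78.9% and 4.48% in the late treated library, and 37.0%, 55.02% and 7.69% in the mixed library. Without the spot with the most Igkc, a setting chosen after seeing the data, they were 65.7%, 23.6% and 10.7%, then 4.02%, 52.8% and 43.2%, then 10.04% and 88.7% for IgM and IgA, then 46.4%, 43.4% and 10.1%. IgA therefore exceeded IgG in the early treated library under both settings, and IgM exceeded IgA in the mixed library under the second. At 2 UMIs, the early treated library had 43.3% IgA and 53.3% IgG, the late treated library 15.1% IgM and 83.7% IgA, and the mixed library 49.4% IgA and 10.8% IgG. At 5 UMIs, IgG was 15.4% in 5m AS and 0.389% in the late treated library, and the early treated library had 3.58% IgM, 40.3% IgA and 56.1% IgG.

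Genes higher and lower in members than in other spots numbered 85 and 45 with no filter on low counts, 39 and 17 at 5 UMIs, and 52 and 22 with other spots weighted to the members' depth; 19 were lower without TMM and 3 with DESeq2. Leaving out 1 library gave 31 to 97 higher and 8 to 52 lower. Without the library block edgeR called 0 and 0, with 113 and 90 genes at an unadjusted p under 0.05. Against macrophage-rich spots the counts were 471 and 3620 without TMM, 714 and 435 at 5 UMIs, 414 to 1431 and 236 to 1034 without 1 library, and 304 lower with DESeq2; without the block edgeR called 0 and 0 (401 and 456 at an unadjusted p under 0.05). Between libraries, TMM scaling gave 829 genes higher and 1227 lower for the late treated library and 1132 and 1120 for the mixed library. All 36 genes called against other spots kept their direction under every alternative that tested them. Xbp1, at -0.01 (log2) and not called, was at 0.0164 with DESeq2, 0.00834 at 2 UMIs, 0.0223 at 5 UMIs, 0.00517 without the block and -0.0786 to 0.0313 with 1 library left out. The cause of these changes was not tested.

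No paired analysis was possible because each group is 1 library; this holds between groups, while members and other spots were paired within libraries by the block. Intervals cover counting error only, UMIs of 1 spot are not independent samples of the animal, the late treated library rests on 21 member spots, and a spot holds several cells. The rule needs Igkc and therefore misses plasma cells with lambda alone.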
